A study of Mus musculus with 7 samples.

Results

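Trp53, which encodes the tumour suppressor p53, and 9 genes that p53 is known to activate directly were followed in light zone germinal centre B cells from mice labelled MIZ1KO or Control. The 10 genes were taken by name (Trp53, Mdm2, Ccng1, Zmat3, Phlda3, Trp53inp1, Sesn1, Aen, Tigar and Ei24) and matched by symbol to 10 of the 48795 gene identifiers in the count table. Of these, 9 passed the filter on low counts and were tested among 11618 genes, and Phlda3 did not. RNA was sequenced in bulk from cells sorted out of the spleen 10 days after an intravenous injection of sheep red blood cells, a particulate antigen that raises germinal centres, which both groups received. The groups were 3 libraries of genotype MIZ1KO, whose titles carry the name MizFF, and 4 of genotype Control, whose titles carry the name eYFP. The sources used here give no strain, sex, age or Cre driver for the mice. They also do not say that each library came from its own mouse, so the p-values rest on a spread between libraries that may be partly technical.

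p53 is a transcription factor that is held at low levels by the ubiquitin ligase MDM2 and its relative MDM4, and that accumulates after DNA damage or other stress. It then switches on genes of cell cycle arrest, DNA repair, metabolism and apoptosis, among them Mdm2 itself, which closes a feedback loop. Germinal centre B cells cut and mutate their own immunoglobulin genes, and the germinal centre factor BCL6 is known to repress Trp53 in them. MIZ1, encoded by Zbtb17, is a zinc finger transcription factor that activates genes of its own and represses others together with MYC, including the p53 target Cdkn1a.

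Library totals ran from 6896673 to 9482453 estimated counts, of which 3087992 to 5085019 lay outside ribosomal RNA. Zbtb17, the gene named by the genotype, measured 5.16, 3.70 and 4.50 CPM (counts set to a common library size with TMM scaling factors) in MIZ1KO replicates 1 to 3 and 3.15, 3.42, 3.15 and 7.02 CPM in Control replicates 1 to 4. The groups overlapped, and since the counts cover the whole gene, this level does not check the genotype labels. The 7 T cell markers summed to between 1.72 and 17.9 CPM in MIZ1KO and between 0.131 and 1.56 in Control, without overlap, each of the 7 had a count in some library, and their part in the results was not tested. TEC models, mostly unspliced single-exon transcripts that await experimental evidence, made up 0.544% to 0.923% of counts other than ribosomal RNA in MIZ1KO and 1.02% to 2.58% in Control, also without overlap. In these bulk libraries fewer cells of a type and less RNA per cell cannot be told apart.

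None of the 9 tested genes passed an adjusted p of 0.05 in edgeR's quasi-likelihood test, where 5.96% of all genes tested and 4.13% of the protein-coding ones did. At an unadjusted p of 0.05, 2 of the 9 passed, Trp53 and Trp53inp1, which is 22.2% against 24.6% of all genes tested. DESeq2 and limma-voom called 0 of them as well. The log2 fold changes of MIZ1KO over Control ran from -0.68 to 0.57, with 4 above 0 and 5 below 0. Their median was -0.04, beside -0.03 over all genes tested and 0.034 over the protein-coding ones, the class of all members. The share of the 9 above 0 was 44.4%, that of all genes 47.7% and that of protein-coding genes 52.6%. The libraries of the groups did not overlap for 2 of the 9, again Trp53 and Trp53inp1, and for 19.5% of all genes tested. These shares among the members lay near the background of the comparison.

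**Figure D1:**
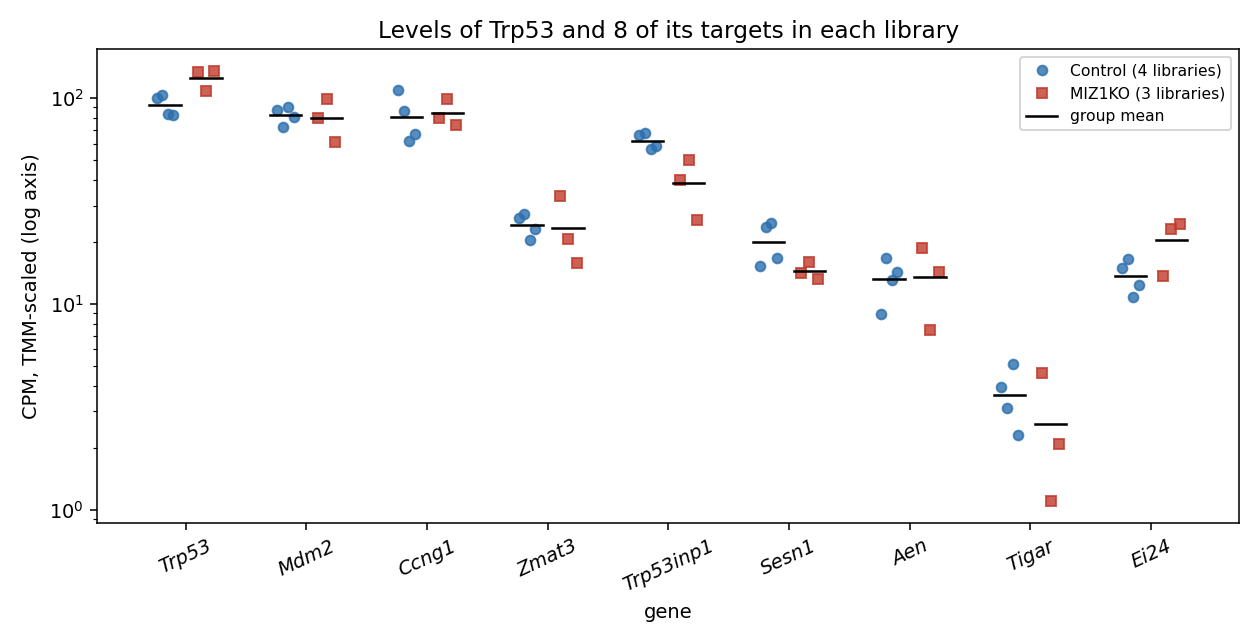
CPM (log axis) of Trp53 and 8 targets in each of 4 Control libraries (blue circles) and 3 MIZ1KO libraries (red squares), with the group mean as a black line. Trp53 lies higher in all 3 MIZ1KO libraries (108 to 135 CPM against 82.8 to 103), Trp53inp1 lies lower in all 3 (25.4 to 50.1 against 56.2 to 67.7), and the libraries of the other 7 genes overlap.

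Trp53 (ENSMUSG00000059552) lies on chromosome 11 from 69580359 to 69591873 on the plus strand in GRCm38 and overlaps no other gene of GENCODE vM21. It measured 133, 108 and 135 CPM in MIZ1KO replicates 1 to 3 and 99.8, 103, 83.3 and 82.8 CPM in Control replicates 1 to 4. All 3 MIZ1KO libraries lay above all 4 Control libraries. The means were 126 ± 15.3 CPM (SD, n = 3) and 92.1 ± 10.5 CPM (SD, n = 4). The log2 fold change was 0.45 ± 0.19 (SE), and its 95% interval ran from 0.045 to 0.85, or 1.03-fold to 1.80-fold. The adjusted p was 0.159 (edgeR), so the difference did not pass over all genes, at an unadjusted p of 0.0314. Between 635 and 1239 counts stood behind each value. The processed pseudogene Trp53-ps, whose longest match to Trp53 is 353 bases at 97.7% identity, had no counts in any library. On the deposited log2 values the means were 9.88 ± 0.13 in MIZ1KO and 9.55 ± 0.094 in Control (SD), a difference of 0.32.

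**Figure D2:**
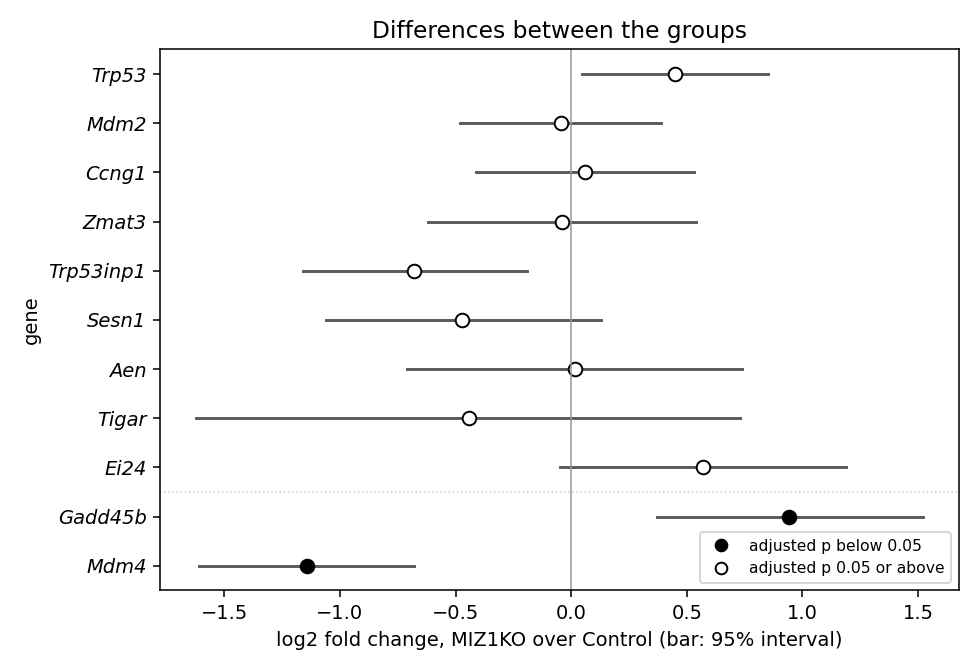
Log2 fold change of MIZ1KO over Control (circles) with its 95% interval (bars) for the 9 tested members and, below the dotted line, for Gadd45b and Mdm4 of the wider lists; filled circles mark an adjusted p below 0.05. The intervals of Trp53 and Trp53inp1 leave out 0, but only Gadd45b and Mdm4, among the genes drawn, pass over all genes.

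Mdm2, the ubiquitin ligase that targets p53 for degradation, measured 80.1, 98.8 and 60.8 CPM in MIZ1KO and 87.0, 71.9, 90.6 and 81.1 CPM in Control. The Control libraries all fell within the range of the MIZ1KO libraries. Its log2 fold change was -0.044 ± 0.21, and the 95% interval ran from 0.718-fold to 1.31-fold (adjusted p = 0.924, edgeR). Ccng1, which encodes cyclin G1, a partner of the phosphatase PP2A that acts on MDM2, measured 79.4, 98.4 and 74.2 CPM in MIZ1KO and 109, 86.5, 61.4 and 66.4 CPM in Control. Here the Control libraries spread wider and enclosed all 3 MIZ1KO libraries. The log2 fold change was 0.059 ± 0.22, with an interval of 0.752-fold to 1.44-fold (adjusted p = 0.905, edgeR). With the TEC share as a covariate it turned to -0.67 (adjusted p = 0.238, edgeR). Mdm2 lies on chromosome 10 from 117688875 to 117710758 and Ccng1 on chromosome 11 from 40748552 to 40755311, both on the minus strand.

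Trp53inp1, a stress-induced nuclear protein that promotes p53 activity and autophagy, had the lowest fold change of the 9. It measured 39.8, 50.1 and 25.4 CPM in MIZ1KO and 65.7, 67.7, 56.2 and 58.3 CPM in Control. The groups did not overlap, MIZ1KO being the lower, and replicate 3 of MIZ1KO lay lowest. The means were 38.4 ± 12.4 CPM (SD, n = 3) and 62.0 ± 5.58 CPM (SD, n = 4), with a log2 fold change of -0.68 ± 0.23 and a 95% interval of 0.446-fold to 0.879-fold (adjusted p = 0.0869, edgeR; unadjusted p = 0.00956). Without MIZ1KO replicate 3 the log2 fold change was -0.45 with an adjusted p of 0.288 (edgeR). Trp53inp1 (ENSMUSG00000028211) lies on chromosome 4 from 11156431 to 11174379 on the plus strand.

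The direction of Trp53 and the opposite direction of Trp53inp1 held in each of 18 alternatives, which included leaving out each library in turn, and neither gene passed the threshold in any of them. Over those alternatives the log2 fold change of Trp53 ran from 0.29 to 0.61 with adjusted p-values from 0.0943 to 0.66, and that of Trp53inp1 from -1.18 to -0.45 with adjusted p-values from 0.0662 to 0.288. With the TEC share as a covariate Trp53 gave its lowest value, 0.29 (adjusted p = 0.66, edgeR), and Trp53inp1 its lowest, -1.18 (adjusted p = 0.0941, edgeR). The values of Trp53inp1 nearest to 0, at -0.45, came without MIZ1KO replicate 3 and on the deposited log2 values. The latter are named as variance-stabilised, and on them Trp53 (0.32 against 0.45) and Mdm4 (-0.76 against -1.14) also differed less between the groups. The part of the TEC share was not tested beyond that covariate.

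Sesn1, a sestrin that restrains the growth kinase mTORC1, measured 14.1, 15.9 and 13.2 CPM in MIZ1KO and 15.3, 23.5, 24.8 and 16.6 CPM in Control. MIZ1KO replicates 1 and 3 lay below every Control library, and replicate 2 lay between Control replicates 1 and 4. Its log2 fold change was -0.47 ± 0.28 (adjusted p = 0.323, edgeR). Tigar, a phosphatase that lowers glycolytic flux, was the least abundant member tested: 4.62, 1.10 and 2.09 CPM in MIZ1KO and 3.93, 3.11, 5.12 and 2.31 CPM in Control, on 11 to 43 counts. The MIZ1KO libraries enclosed most of the Control range, and the interval of 0.326-fold to 1.66-fold is the widest among the members (log2 fold change -0.44 ± 0.56, adjusted p = 0.679, edgeR). Without MIZ1KO replicate 2, which held 11 counts, the value turned to 0.056, and without MIZ1KO replicate 1 it was -1.19. The Tigar model shares 122 bases, or 3.34% of its exonic length, with the antisense model Platr31, which had 2 counts in all 7 libraries together.

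Ei24, an endoplasmic reticulum protein of autophagy, had the highest fold change of the 9. It measured 13.6, 23.0 and 24.3 CPM in MIZ1KO and 15.0, 16.5, 10.8 and 12.4 CPM in Control. MIZ1KO replicates 2 and 3 lay above every Control library and replicate 1 lay among them. The log2 fold change was 0.57 ± 0.29, with an interval of 0.967-fold to 2.28-fold (adjusted p = 0.241, edgeR), and it ran from 0.44 to 0.84 as each library was left out. Ei24 shares 324 bases, 6.66% of its exonic length, with the antisense model Gm26787, which had no counts.

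Aen, an exonuclease of apoptotic nuclei, measured 18.6, 7.49 and 14.3 CPM in MIZ1KO and 8.92, 16.6, 13.1 and 14.3 CPM in Control. Its groups overlapped throughout, with a log2 fold change of 0.016 ± 0.34 and an interval of 0.613-fold to 1.67-fold (adjusted p = 0.983, edgeR). Zmat3, a zinc finger protein that binds RNA, measured 33.3, 20.6 and 15.8 CPM in MIZ1KO and 26.0, 27.4, 20.3 and 23.1 CPM in Control. The 4 Control libraries lay inside the MIZ1KO range, and the log2 fold change was -0.04 ± 0.28 (adjusted p = 0.948, edgeR). With the TEC share as a covariate it was -0.72 (adjusted p = 0.463, edgeR). Phlda3, an inhibitor of the survival kinase AKT, had 0 counts in each MIZ1KO library and 1 count in each of Control replicates 1 and 3. A count of 0 allows a level of up to 0.300 to 0.483 CPM per library, by 3 counts of the scaled library size. The gene was at or under that floor in the libraries without a count. Control replicates 1 and 3 measured 0.131 CPM each, on that single count, and no fold change is given.

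Set against exonic length, Trp53 and Ccng1 were the most abundant of the members. Mean levels over the 7 libraries were 26.3 CPM per kilobase for Trp53, 23.4 for Ccng1, 16.0 for Mdm2 and 8.01 for Trp53inp1. The ranges of Trp53 (20.5 to 33.5) and Ccng1 (17.5 to 31.1) overlapped, as did those of Ccng1 and Mdm2 (12.0 to 19.4), whereas Trp53inp1 (3.93 to 10.5) lay below Mdm2 in all libraries. Sesn1 followed at 4.43 CPM per kilobase, Ei24 at 3.39, Aen at 2.30 and Zmat3 at 2.08, with overlapping ranges from each to the next. Tigar stood at 0.870 (0.300 to 1.40) and Phlda3 at 0.0240 CPM per kilobase.

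The p53 response element is built of copies of a 10-base half-site, and the promoters of the members were searched for it because the members were grouped as direct targets. RefSeq promoter windows on GRCm38.p6, from 250 bases before to 50 bases after each start site, were found for 8 of the 10 genes, Zmat3 and Trp53inp1 having no entry. The p53 half-site was present in a window of 6 of the 8: Trp53 itself, Mdm2, Ccng1, Sesn1, Aen and Ei24. Over all 27025 genes with a window, 9.55% had one, and 8.36% of the 32851 windows did. Half-sites are shown in capitals with 14 bases on each side, read 5′ to 3′ on the strand of the gene.
Trp53, chr11:69580270-69580307, plus strand: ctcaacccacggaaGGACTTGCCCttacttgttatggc
Mdm2, chr10:117710921-117710958, minus strand: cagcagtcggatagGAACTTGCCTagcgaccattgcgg
Ccng1, chr11:40755448-40755485, minus strand: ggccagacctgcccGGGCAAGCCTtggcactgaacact
Sesn1, chr10:41887252-41887289, plus strand: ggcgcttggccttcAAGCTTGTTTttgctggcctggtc
Aen, chr7:78895923-78895960, plus strand: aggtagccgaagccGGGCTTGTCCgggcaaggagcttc
Ei24, chr9:36797321-36797358, minus strand: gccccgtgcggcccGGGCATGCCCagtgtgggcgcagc

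The match in Trp53 began 75 bases before the start site, that in Mdm2 186 bases and that in Ccng1 185 bases before it, and that in Ei24 10 bases before it. In Sesn1 the match stood 173 bases before the second of 2 annotated starts, and in Aen it fell in both of 2 overlapping windows, 121 bases before the later start. In none of the 8 members did a pair of half-sites stand within 13 bases of each other, which 0.074% of genes showed. Only exact matches to the half-site pattern counted. Elements with a mismatch, or outside these windows, were not sought, so full elements of these genes may have been missed. The E-box CACGTG, the letters bound by MYC with its partner MAX, was in the windows of Trp53 and Aen, 2 of the 8 members, and in 8.09% of genes. The letters ATCGAT, reported for MIZ1, were in none of the 8 and in 1.02% of genes. Each of these 3 patterns reads the same on both strands, so a single search covered both. These matches describe the windows and say nothing of whether a factor was bound. The 6 genes with a half-site included the highest of the fold changes, Ei24 at 0.57, and one of the lowest, Sesn1 at -0.47.

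Across the wider p53 pathway, 76 further genes were read from the same fit, 64 of which were tested and 2 of which passed: Mdm4 was lower and Gadd45b higher in MIZ1KO. That is 3.12% of the lists, beside 5.96% of all genes. Over all genes 1.9% were called higher and 4.05% lower. At an unadjusted p of 0.05, 14 of the 64 passed (21.9%, beside 24.6% of all genes), and 14 had libraries that did not overlap (21.9%, beside 19.5%). Both shares lay near the background.

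Mdm4, the relative of Mdm2 that binds p53 and blocks its activation domain, fell in MIZ1KO. It measured 137, 149 and 119 CPM in MIZ1KO and 229, 294, 378 and 290 CPM in Control. The highest MIZ1KO library lay below the lowest of Control. The means were 135 ± 14.7 CPM (SD, n = 3) and 298 ± 61.2 CPM (SD, n = 4). The log2 fold change was -1.14 ± 0.22, with a 95% interval of 0.328-fold to 0.626-fold (adjusted p = 0.0127, edgeR). The call ended without MIZ1KO replicate 1 (log2 fold change -1.10, adjusted p = 0.0945, edgeR) and with the TEC share as a covariate (-0.69, adjusted p = 0.252, edgeR), over a range of 5.49e-05 to 0.252 in its 18 alternatives. The TEC share was 0.544% to 0.923% in MIZ1KO and 1.02% to 2.58% in Control, and its part in the fall of Mdm4 was not tested beyond that covariate. The longest match of Mdm4 to its pseudogene Mdm4-ps spans 140 bases, and Mdm4-ps had 1 count in each of Control replicates 2 and 3 and none elsewhere.

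Relative to Mdm2 and per exonic length, Mdm4 stood at 0.586, 0.517 and 0.674 in the MIZ1KO libraries and at 0.906, 1.41, 1.43 and 1.23 in the Control libraries. The ratio, formed after the values of Mdm4 were seen, did not overlap between the groups. The other regulators of p53, 27 tested genes, did not pass. Mdm4 was 1 call among 28, or 3.57% beside 5.96% of all genes. At an unadjusted p under 0.05, 4 of the 28 passed (14.3%, beside 24.6% of all genes). Of all 28, 16 lay above 0 (57.1%, beside 47.7% of all genes and 52.6% of protein-coding genes). Their median log2 fold change was 0.049. Rpl5, a ribosomal protein that can bind MDM2, measured -0.77 ± 0.27 (adjusted p = 0.0889, edgeR), and the ubiquitin ligase gene Cop1 measured -0.50 ± 0.19 (adjusted p = 0.115, edgeR). Rpl5 passed with DESeq2 (adjusted p = 0.0348), with the TEC share as a covariate (0.0236, edgeR) and without Control replicate 3 (0.0297, edgeR). Its counts were partly not whole, as happens where reads match several genes. The same held for some counts of Cop1, Bax and Ddb2. Cdkn2a, which encodes the MDM2 inhibitor ARF, had at most 1 count in a library and was not tested, like Ppp1r13l, Trp63 and Trp73.

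**Figure D3:**
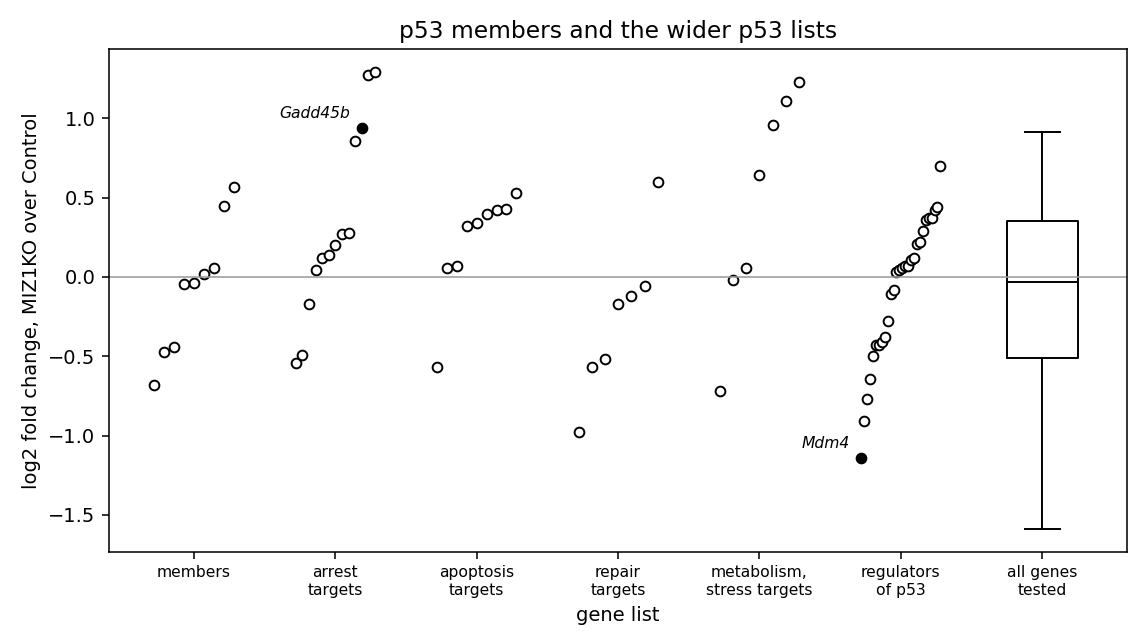
Log2 fold change of MIZ1KO over Control for each tested gene of the members and of the 5 wider p53 lists, filled where the adjusted p is below 0.05; the box shows all 11618 genes tested, with its line at the median, its edges at the percentiles 25 and 75 and its whiskers at 5 and 95. Gadd45b and Mdm4 are the called genes, and the members lie within the whiskers, between -0.68 and 0.57.

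Of the targets that act in cell cycle arrest, Gadd45b was the one called among 13 tested (7.69%, beside 5.96% of all genes). At an unadjusted p under 0.05, 4 of the 13 passed (30.8%, beside 24.6% of all genes). The groups did not overlap for 3 of the 13 (23.1%, beside 19.5% of all genes). Gadd45b, a stress-induced gene of the GADD45 family that NF-kB also drives, rose from 23.6, 16.0, 10.4 and 14.8 CPM in Control to 30.2, 33.7 and 29.3 CPM in MIZ1KO, without overlap. Its log2 fold change was 0.94 ± 0.27 with an adjusted p of 0.0497 (edgeR), at the edge of the threshold. The call ended in 11 of 18 alternatives, 6 of them the removal of a library, with adjusted p-values up to 0.915 with the TEC share as a covariate, where the log2 fold change was 0.13. Cdkn1a, the cyclin-dependent kinase inhibitor p21 and the classical target of p53, measured 1.61, 5.10 and 2.09 CPM in MIZ1KO and 3.15, 2.80, 3.54 and 1.00 CPM in Control. These groups overlapped on 10 to 51 counts, and the interval of 0.517-fold to 2.80-fold is wide (log2 fold change 0.27 ± 0.58, adjusted p = 0.825, edgeR). The value of Cdkn1a turned to -0.41 without MIZ1KO replicate 2 and to -0.16 with the replicate block. Gtse1 and Sfn, the latter encoding 14-3-3 sigma, did not overlap between the groups and measured 0.86 ± 0.32 and 1.29 ± 0.49 (adjusted p = 0.108 and 0.115, edgeR), the latter 0.38 on the deposited log2 values. Of the 13 genes 10 lay above 0 (76.9%, beside 47.7% of all genes and 52.6% of protein-coding genes), with a median of 0.20.

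None of the 9 tested targets that act in apoptosis passed, where 5.96% of all genes tested did. At an unadjusted p under 0.05, 2 passed, or 22.2% beside 24.6% of all genes. The libraries of the groups did not overlap for 4 of the 9, Fas and Trp53i11 among them (44.4%, beside 19.5% of all genes). Of the 9, 8 lay above 0 (88.9%, beside 47.7% of all genes and 52.6% of protein-coding genes), with a median of 0.34. Bax, which opens the outer mitochondrial membrane, measured 20.2, 18.0 and 18.2 CPM in MIZ1KO and 13.5, 11.7, 13.4 and 13.2 CPM in Control, without overlap. Its log2 fold change was 0.53 ± 0.27 (adjusted p = 0.225, edgeR). Fas, the death receptor that also marks germinal centre B cells, measured -0.57 ± 0.24 (adjusted p = 0.16, edgeR) and Trp53i11 0.42 ± 0.19 (adjusted p = 0.184, edgeR). Bbc3, which encodes the BH3-only protein PUMA, held 0 to 5 counts per library and was not tested, nor were Perp, Eda2r and Dram1.

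None of the 7 tested genes of DNA repair and nucleotide supply passed, where 5.96% of all genes tested did. At an unadjusted p under 0.05, 1 of the 7 passed (14.3%, beside 24.6% of all genes). The groups did not overlap for 1 of the 7 (14.3%, beside 19.5% of all genes). Of the 7, 1 lay above 0 (14.3%, beside 47.7% of all genes) and 6 below, with a median of -0.17. Ddb2, which recognises ultraviolet lesions in DNA, measured 5.37, 7.39 and 8.53 CPM in MIZ1KO and 13.2, 12.6, 14.8 and 14.3 CPM in Control. These libraries did not overlap, and the log2 fold change was -0.98 ± 0.33 (adjusted p = 0.0791, edgeR). The counts of Ddb2 were low and partly not whole. Triap1 and Ercc5 measured 0.60 ± 0.35 and -0.57 ± 0.45 (adjusted p = 0.305 and 0.461, edgeR), and Ercc5 turned to 0.38 with the TEC share as a covariate. None of the 7 tested targets of metabolism and stress passed either, beside the same 5.96% of all genes. The 3 at an unadjusted p under 0.05 made up 42.9%, beside 24.6% of all genes. Of the 7, 5 lay above 0 (71.4%, beside 47.7% of all genes and 52.6% of protein-coding genes), and the median was 0.64. The mTORC1 inhibitor gene Ddit4 measured 1.23 ± 0.44 (adjusted p = 0.0971, edgeR), led by 22.2 CPM in MIZ1KO replicate 1. Without that library Ddit4 gave 0.59, on the deposited log2 values 0.53, and with the TEC share as a covariate it turned to -0.44. The ribosomal protein paralog Rps27l measured -0.72 ± 0.29 (adjusted p = 0.139, edgeR). Dcxr measured 1.11 ± 0.49 (adjusted p = 0.174, edgeR), with 0.42 on the deposited log2 values and 0.39 with the TEC share as a covariate. Over all 36 tested targets of the wider lists, 24 lay above 0, which is 66.7% against 47.7% of all genes and 52.6% of protein-coding genes, and their median was 0.17. DESeq2 and limma-voom called no target of apoptosis, repair or metabolism. Rps27l passed with the TEC share as a covariate (-1.95, adjusted p = 0.0122, edgeR) and without Control replicate 3 (-0.92, adjusted p = 0.0282, edgeR), the lowest Control library at 36.9 CPM.

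**Figure D4:**
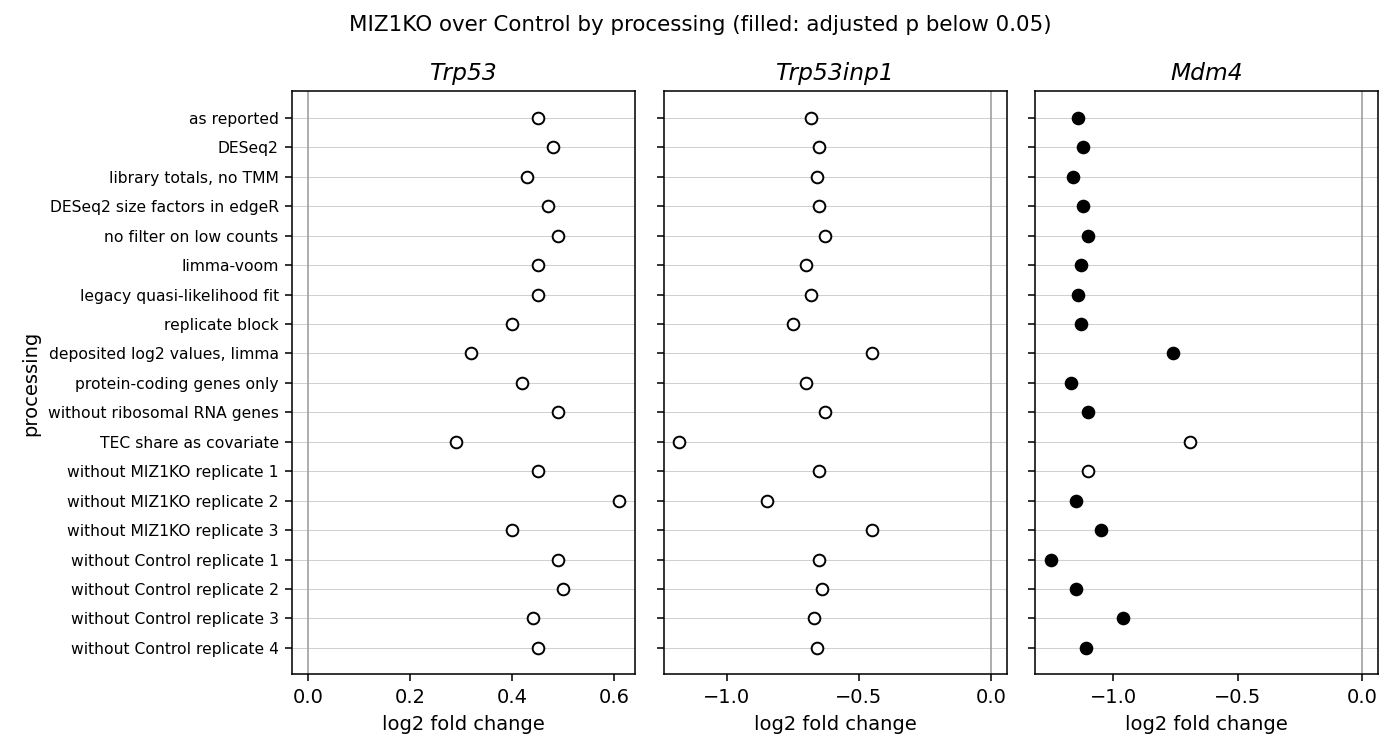
Log2 fold change of MIZ1KO over Control for Trp53, Trp53inp1 and Mdm4 as reported and under each of 18 alternatives, filled where the adjusted p is below 0.05. No point crosses 0; Trp53 and Trp53inp1 are never filled, and Mdm4 is open with the TEC share as a covariate and without MIZ1KO replicate 1.

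The genes whose log2 CPM followed that of Trp53 most closely over the 7 libraries, among 6296 protein-coding genes with a mean of at least 10 CPM, were Pacs1 (Pearson r = 0.993), Nfkbib (0.988), Lasp1 (0.983), Sec31a (0.982) and Mcm3 (0.977). With 7 libraries in 2 groups and so many candidates, such values describe likeness only. Of these 5 genes Pacs1 passed the test, at a log2 fold change of 0.95 (adjusted p = 0.0388, edgeR). Among the p53 targets of the members, Ei24 had an r of 0.643 with Trp53 (rank 1255 of the 6296), Ccng1 0.296 (2554) and Aen 0.211 (2831). Zmat3 had 0.0235 (rank 3452), Mdm2 -0.512 (5041), Sesn1 -0.671 (5519) and Trp53inp1 -0.761 (5783). Tigar and Phlda3 lay below the minimum of 10 CPM and were not ranked. The 2 groups and their unlike TEC shares enter each of these values.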

How the data were processed

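Gene expression was measured in 7 libraries, grouped by the genotype label and numbered by their titles. The authors deposited expected counts per gene, not normalized, and log2 values named as variance-stabilised. Per the submitters' processing notes, STAR 2.5.2, RSEM 1.3.0, DESeq2 1.18.1 and R 3.4.3 were used with build GRCm38, with no role given. Annotation release and strand setting: not given in the sources used here. Symbols, positions and exonic lengths came from GENCODE vM21, in which 48349 identifiers matched.

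Counts were rounded, filtered with filterByExpr, scaled by TMM and tested in edgeR 4.0.16 by quasi-likelihood (R 4.3.3; newer fit, robust), two-sided, with Benjamini-Hochberg adjustment over 11618 genes. Standard errors came from the F statistic. Log2 CPM used a prior count of 2. The script was tested on simulated data. Alternatives used DESeq2 1.42.0 and limma 3.58.1. Ribosomal RNA comprised the annotated classes and Gm26917. No pair of libraries within a group agreed within sampling noise (lowest chi-square per degree of freedom 15.7).

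Members and lists were chosen with earlier results of these data known. Besides the members, genes named were those of each wider list past the threshold, the 3 with the smallest p in each, and Cdkn1a, Bax, Bbc3, Mdm4 and Cdkn2a. Promoter windows came from RefSeq (GRCm38.p6). Near-identical transcripts were sought by blastn at 95% identity over at least 100 bases. Results of some marker lists are not reported here.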

Additional observations from a re-analysis of the deposited data

Results flagged for a closer look

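An outlier rule was applied to 25 tested genes of the members and wider lists. Of these, Bax had 1 Control library far from the other 3. Control replicate 2 measured 11.7 CPM, against 13.2 to 13.5 CPM in the others. That is a gap of 0.850 of the range, where 0.829 is the critical value for 4 libraries. Chance gives such a gap in about 1 in 20 groups. The 3 MIZ1KO libraries are too few for this rule. Zbtb17 and the genes most like Trp53 were not among the 25. For Zbtb17, Control replicate 4 measured 7.02 CPM, against 3.15 to 3.42 CPM in the other Control libraries.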

How the results depend on the processing

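The count of members called was 0 under all 18 alternatives, and the directions of Trp53, Trp53inp1, Sesn1 and Ei24 held in each. Over all genes, 692 calls became 1094 with DESeq2, 319 with limma-voom, 314 among protein-coding genes only, 296 with the TEC share as a covariate and between 39 and 1350 as single libraries were left out; fewer samples or genes enter some of these fits. The extremes came without MIZ1KO replicate 1 (39) and without Control replicate 1 (1350). In the wider lists 2 calls became 1 with limma-voom, the legacy fit, the replicate block or protein-coding genes only, and 0 to 3 as libraries were left out. Same-numbered libraries of the groups had correlations of deviations of 0.0233, 0.0665 and 0.162, and libraries of unlike number -0.158 to 0.134. So few pairs cannot tell whether the libraries were paired. The replicate block called 476 genes in all.

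The log2 fold changes of Mdm2, Ccng1, Zmat3, Aen, Tigar, Cdkn1a, Ercc5 and Ddit4 changed sign in at least 1 alternative, none with a call, and the cause was not tested. As single libraries were left out, Mdm2 ran from -0.16 to 0.12, Ccng1 from -0.0077 to 0.24, Zmat3 from -0.35 to 0.16, Aen from -0.27 to 0.39, Tigar from -1.19 to 0.056 and Cdkn1a from -0.41 to 0.64. With the TEC share as a covariate Ccng1 gave -0.67, Ercc5 0.38, Ddit4 -0.44 and Cdkn1a -0.0018, and, without a change of sign, Zmat3 -0.72 and Dcxr 0.39. With the replicate block Ccng1 gave -0.0046 and Cdkn1a -0.16. Without ribosomal RNA genes Mdm2 gave 0.00042 and Zmat3 0.0098, and without a filter Zmat3 gave 0.0062. Aen gave -0.0088 with library totals, -0.067 with limma-voom and -0.016 among protein-coding genes. Counts per library were low for Tigar (11 to 43), Cdkn1a (10 to 51), Sfn (7 to 47) and Dcxr (7 to 70).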
